A study of Mus musculus with 2 samples.

Results

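The genes described here are 9 outputs of the circadian clock in mouse liver: Dbp, Tef and Hlf, the PAR bZIP transcription factors, their antagonist Nfil3, the DEC repressors Bhlhe40 and Bhlhe41, and the rhythmic liver genes Usp2, Wee1 and Rgs16. They were chosen by symbol, and all 18 probe sets annotated with exactly 1 of these symbols were taken, of 45101 on the array. No probe set with several symbols named any of them. The choice was made with the difference between both arrays already known, so every value below is a description and nothing was tested.

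The samples were livers of ICR mice, an outbred stock, taken at 13 weeks of age. The control group ate the basal diet CRF-1, and the treated group ate CRF-1 with diosgenin, a plant steroidal sapogenin, at 500 ppm for 4 weeks starting at 9 weeks of age. No group carried a transgene or other named allele, both were kept under 12 hours of light and 12 of dark, and the sex is not given in the labels. Total RNA of 3 mice was pooled for each of 2 Affymetrix arrays, 1 per diet, so there was no replicate and neither an error nor a p-value can be given for any value. Mice were housed 3 to a cage, and diet and cage cannot be told apart if each pool came from 1 cage. The hour at which the livers were collected is not given in the sources used here.

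The clock of a liver cell is a transcriptional loop. CLOCK and BMAL1, the latter encoded by Arntl, bind E-box sequences and switch on the Per and Cry repressors, the REV-ERB receptors and many output genes. Dbp, Tef and Hlf are among these outputs. Their proteins bind a sequence called the D-box and in liver drive enzymes of drug and xenobiotic handling, while NFIL3 binds the same sequence and represses. Its gene is itself held down by the REV-ERB receptors through a sequence called the RORE, so Dbp and Nfil3 transcripts peak at opposite times of the day. A transcript level from a single collection therefore depends on the hour as well as on the amplitude of the rhythm.

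The deposited intensities had been scaled to a common 2% trimmed mean, 96.9 on each array. The medians were 17.1 for control and 16.97 for diosgenin. Before a ratio was taken, any signal below 10.7 was raised to this value, called the floor here, which is the 40th percentile of the signals. Each gene was read through its brightest probe set, whose mean over both arrays had to reach a filter of 28.4, the 60th percentile, and 9732 of 18194 genes did. The median log2 ratio of these genes, diosgenin over control, was −0.005. The log2 ratios of probe sets reading 1 gene scattered with a standard deviation of 0.28, a spread within these arrays that holds none between mice. All 11 hepatocyte markers with a probe set were above the filter, so the markers matched the labelled tissue. Through their brightest probe sets, 0 of them was as much as 1.5-fold apart. A second probe set of Apob above the filter had a log2 ratio of −0.94.

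Of the 9 clock output genes, 8 passed the signal filter and Bhlhe41 did not. Dbp, Rgs16, Bhlhe40 and Tef were at least 1.5-fold higher on the diosgenin array, and none of the 8 was 1.5-fold lower. Of all genes above the filter, the 1.5-fold line was passed upward by 2.84% and downward by 3.61%. Dbp and Rgs16 were also more than 2-fold higher and none of the 8 was 2-fold lower, where the shares of all genes were 0.555% and 0.853%. Because the genes were picked with this contrast in view, nothing is read from these shares. The median log2 ratio of the 8 genes was 0.52, against −0.01 over all genes. Rgs16 passed the filter only through its signal on the diosgenin array, since its control signal alone would not have reached it.

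**Figure D1:**
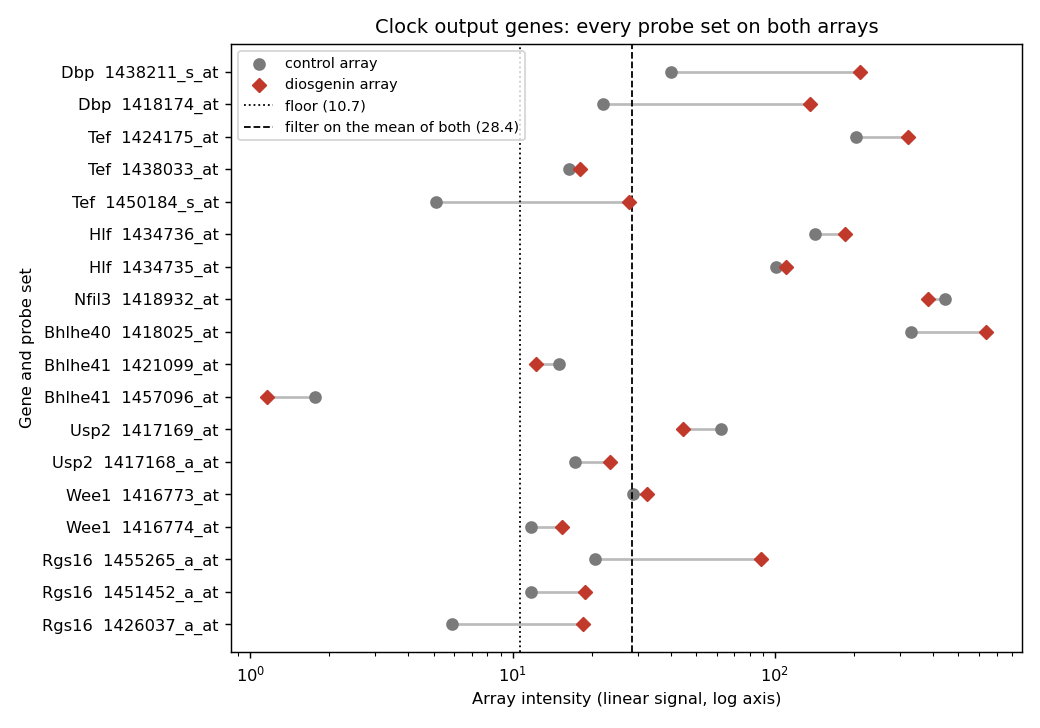
Array intensity (linear signal on a log axis) of each of the 18 probe sets of the 9 genes on the control array (grey circles) and the diosgenin array (red diamonds), with the floor of 10.7 and the filter value of 28.4 as vertical lines. Both Dbp probe sets show the widest gaps among those above the filter, and both Bhlhe41 probe sets lie at the dim end, at or below 15.01.

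Dbp, a PAR bZIP factor known for a deep daily rhythm in liver, had the largest difference of the 9 genes. Its brighter probe set (1438211_s_at) read 39.99 with the control diet and 211 with diosgenin, 5.27-fold higher. The second probe set (1418174_at), which is not marked as shared between transcripts, read 22.01 and 136, or 6.16-fold higher. Both probe sets were therefore low on the control array and high on the diosgenin array, and their log2 ratios of 2.40 and 2.62 lay 0.22 apart, less than the standard deviation of 0.28 between probe sets of the same gene. Dbp held rank 2 of 9732 genes from the highest ratio and rank 1 of the 2433 genes in its quartile of signal strength. Of 4079 genes with several probe sets above the filter, 2 had every such probe set at least 2-fold higher, Dbp and Slc66a2. The dimmer Dbp probe set passed the filter only through its diosgenin signal, so this count is no support for Dbp. Slc66a2 is named after its values were seen, and its log2 ratios were 1.22 and 1.40.

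Tef, the second PAR bZIP factor, was higher by a smaller margin. Its brightest probe set (1424175_at) read 204 with the control diet and 322 with diosgenin, 1.57-fold higher with a log2 ratio of 0.65. Tef held rank 18 from the highest ratio among the 2433 genes in its quartile of signal strength. The remaining Tef probe sets were under the filter. The one marked as shared (1450184_s_at) read 5.12, which is under the floor, and 27.8, giving a bound of at least 2.59-fold higher. The other (1438033_at) read 16.4 and 18.00, 1.10-fold higher. All 3 were higher on the diosgenin array, but their sizes spanned log2 ratios of 0.14 to 1.37.

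Hlf, the third of the family, had the smallest difference of the PAR bZIP factors. Probe set 1434736_at read 142 in control and 185 in diosgenin liver, 1.30-fold higher, and probe set 1434735_at read 101 and 110.1, 1.09-fold higher. The log2 ratios were 0.38 and 0.12. The second is within the scatter of 0.28, and 16.9% of all genes were at least as far apart as the first. Among the 2433 genes in its quartile of signal strength, Hlf held rank 110 from the highest ratio. It lay inside their central 95%, from −0.52 to 0.47. The PAR bZIP factors thus all read higher, in the order Dbp, Tef, Hlf, and the distance between Tef and Hlf, 0.65 against 0.38, is no more than that standard deviation.

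Nfil3, the D-box repressor, went the other way by a small amount. Its single probe set (1418932_at) was bright, with 444 in control and 383 in diosgenin liver, 1.16-fold lower. The log2 ratio of −0.21 is within the standard deviation between probe sets, and 38.7% of all genes were at least as far apart. Among the 2433 brightest genes, whose ratios scatter less, Nfil3 held rank 2150 from the highest ratio. It lay inside their central 95%, from −0.47 to 0.44. So Dbp and Tef were at least 1.5-fold higher. The differences of Nfil3 and of the dimmer Hlf probe set were within the scatter between probe sets of the same gene. That scatter is not an error for the ratio of a gene.

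The bases before the start sites of Dbp, Tef and Nfil3 are shown because their proteins act on the D-box in opposite ways. Dbp and Tef were at least 1.5-fold higher, while the Nfil3 difference was within the standard deviation between probe sets. RefSeq windows on GRCm38.p6 were found for 7 of the 9 genes. Bhlhe40 and Wee1 had no entry. In the 250 bases before each start, both strands were searched for the E-box CACGTG, its variant CACGTT, the D-boxes TTATGTAA and TTACGTAA, and the RORE cores TAGGTCA and TGGGTCA. Capitals mark each match, and no matches overlapped.
Dbp, chr7:45704997-45705246, plus strand: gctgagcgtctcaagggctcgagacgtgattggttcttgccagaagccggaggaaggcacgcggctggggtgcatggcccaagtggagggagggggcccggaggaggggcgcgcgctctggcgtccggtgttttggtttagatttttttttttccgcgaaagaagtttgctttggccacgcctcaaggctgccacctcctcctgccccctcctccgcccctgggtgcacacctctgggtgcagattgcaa
Tef, upstream start, chr15:81802423-81802672, plus strand: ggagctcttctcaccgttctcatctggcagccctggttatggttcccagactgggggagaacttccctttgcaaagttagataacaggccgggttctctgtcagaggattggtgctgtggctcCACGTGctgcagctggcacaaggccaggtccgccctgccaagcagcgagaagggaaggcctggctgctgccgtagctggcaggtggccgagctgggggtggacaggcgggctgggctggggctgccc
Tef, downstream start, chr15:81811164-81811413, plus strand: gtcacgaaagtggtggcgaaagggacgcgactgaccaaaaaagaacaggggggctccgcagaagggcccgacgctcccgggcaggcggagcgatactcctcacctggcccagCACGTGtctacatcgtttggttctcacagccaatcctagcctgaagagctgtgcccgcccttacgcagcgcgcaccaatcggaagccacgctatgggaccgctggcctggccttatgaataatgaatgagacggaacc
Nfil3, chr13:52981040-52981289, minus strand: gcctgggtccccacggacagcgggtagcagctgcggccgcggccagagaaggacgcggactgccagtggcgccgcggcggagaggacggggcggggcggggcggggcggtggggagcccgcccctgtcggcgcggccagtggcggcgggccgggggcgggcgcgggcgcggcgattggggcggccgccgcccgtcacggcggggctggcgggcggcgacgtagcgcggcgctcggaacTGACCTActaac

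Tef had the E-box CACGTG before each of its start sites, beginning 127 bases before the upstream one and 138 before the downstream one. Of all 32851 promoter windows of this length, 6.02% held that sequence. Bhlhe41 held the same E-box 153 bases before its start. The Nfil3 window held the RORE core on its reverse strand, printed there as TGACCTA, 12 bases before the start, and 2.23% of all windows held that core. The windows of Dbp, Hlf, Usp2 and Rgs16 held none of the letters searched, and no clock output window held a D-box, which 0.819% (TTATGTAA) and 0.113% (TTACGTAA) of all windows did. A match is a string of letters and not a bound site, and a missing match says nothing about sites outside the window.

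Bhlhe40, which encodes the repressor DEC1 that competes with CLOCK and BMAL1 at E-boxes, was also higher. Its single probe set (1418025_at) read 331 with the control diet and 640.5 with diosgenin, 1.94-fold higher with a log2 ratio of 0.95. It held rank 65 of 9732 genes, and rank 10 within the 2433 brightest, where the log2 ratios of the central 95% lay between −0.47 and 0.44. Among those brightest genes, 1.11% passed 1.5-fold upward.

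Bhlhe41, the paralogue that encodes DEC2, was not measurable at a useful level. Probe set 1421099_at read 15.01 and 12.3 and probe set 1457096_at read 1.77 and 1.16 on the control and diosgenin arrays. The second pair is under the floor on both arrays, so no fold is given. The first pair was 1.22-fold lower, but it lies close to the floor and under the filter. The DEC paralogues therefore cannot be compared for their response on these arrays.

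Rgs16, a regulator of G protein signalling whose liver transcript is known to vary with the time of day and with feeding, had the second largest ratio. Its brightest probe set (1455265_a_at) read 20.6 with the control diet and 88.1 with diosgenin, 4.29-fold higher. The other probe sets were dim. Probe set 1451452_a_at read 11.8 and 18.8, 1.59-fold higher, and 1426037_a_at read 5.87, under the floor, and 18.5, a bound of at least 1.72-fold higher. All 3 were higher on the diosgenin array. With log2 ratios of 2.10, 0.67 and 0.78 they differed in size by more than the standard deviation between probe sets, and only the first passed the filter. Rgs16 held rank 4 of all genes, in the dimmest quartile, where the spread was widest and 1.32% of genes were at least 2-fold higher. Its log2 ratio was 1.63 with the floor at the 60th percentile.

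Usp2, a rhythmic ubiquitin-specific protease with alternative transcripts, was the only one of the 9 genes whose probe sets pointed in opposite directions. Probe set 1417169_at, which represents the gene, read 62.1 in control and 44.7 in diosgenin liver, 1.39-fold lower. Probe set 1417168_a_at, under the filter, read 17.3 and 23.5, 1.36-fold higher. The log2 ratios of −0.47 and 0.44 nearly cancel, so no direction is given for the gene. The a in the name of the second marks a probe set that reads alternative transcripts of the gene, and which transcripts each probe set reads was not tested.

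Wee1, the kinase that holds back entry into mitosis and is under clock control in liver, was dim and little different. Probe set 1416773_at read 28.8 and 32.6, 1.13-fold higher, and probe set 1416774_at read 11.8 and 15.4, 1.30-fold higher. The log2 ratio of the first, 0.18, is within the standard deviation between probe sets, and 45.4% of all genes were at least as far apart. The first probe set lies just inside the filter, with a mean of 30.7 against 28.4.

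Over all 18 probe sets, whatever their brightness, 14 were higher on the diosgenin array, 3 were lower and 1 was under the floor on both. Of these, 8 passed 1.5-fold upward and 0 downward, against 4.34% and 4.71% of all probe sets with 1 symbol. Probe sets of the same gene share their RNA and are not independent of each other.

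**Figure D2:**
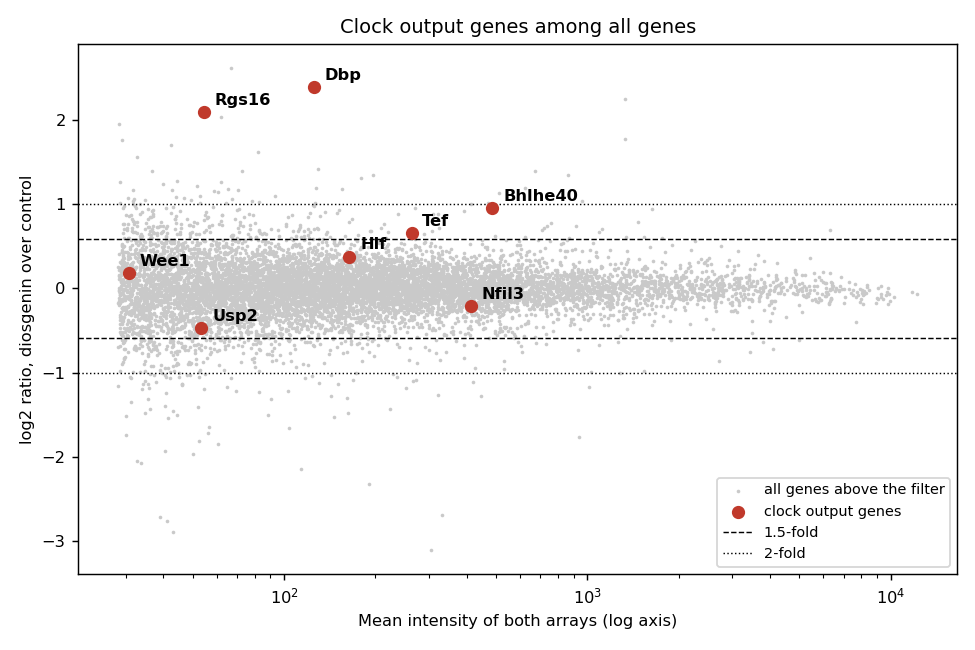
Log2 ratio of the diosgenin over the control array against the mean intensity of both arrays (log axis) for the 9732 genes above the filter (grey) and the 8 clock output genes among them (red, labelled), with lines at 1.5-fold and 2-fold. Dbp (2.40) and Rgs16 (2.10) stand at the upper edge, Bhlhe40 (0.95) and Tef (0.65) lie above the bulk of genes of like intensity, and Hlf, Wee1, Nfil3 and Usp2 lie within it.

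The core loop that drives these outputs was read on the same arrays. Of 17 core clock genes with a probe set, 12 passed the filter. Of these, 5 read higher and 7 read lower, and their median was −0.17 on the log2 scale. The 1.5-fold line was passed by 2 upward and by 1 downward, where the shares of all genes were 2.84% and 3.61%. Per1, an E-box driven repressor, was 2.03-fold higher, at 42.3 in control and 85.9 in diosgenin liver. Nr1d1, which encodes the REV-ERBα receptor that represses Arntl and Nfil3, was 1.63-fold higher at 98.3 and 160, and its relative Nr1d2 was 1.35-fold higher at 539.7 and 729. Cry1, whose transcript peaks later than the other repressors, was 1.83-fold lower at 103 and 56.3. Arntl read 174 and 116 and Clock 239 and 212, with log2 ratios of −0.58 and −0.17.

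The other core genes differed little. Per2, Cry2 and Rora had log2 ratios of −0.17, −0.18 and −0.17, and Csnk1d, Csnk1e and Btrc, which set the stability of the PER proteins, had 0.08, −0.19 and 0.14. Among the 20 genes of the loop and its outputs above the filter, 6 were at least 1.5-fold higher, namely Dbp, Rgs16, Per1, Bhlhe40, Nr1d1 and Tef, and Cry1 was the 1 gene at least 1.5-fold lower, with Arntl, at a log2 ratio of −0.58, just short of the line. These genes differed in both directions. Over all genes above the filter, 2.84% passed 1.5-fold upward and 3.61% downward, and the median log2 ratio was −0.005. The output genes were picked with this contrast in view, and Rgs16 passed the filter only through its diosgenin signal. Nothing is therefore read from these counts.

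**Figure D3:**
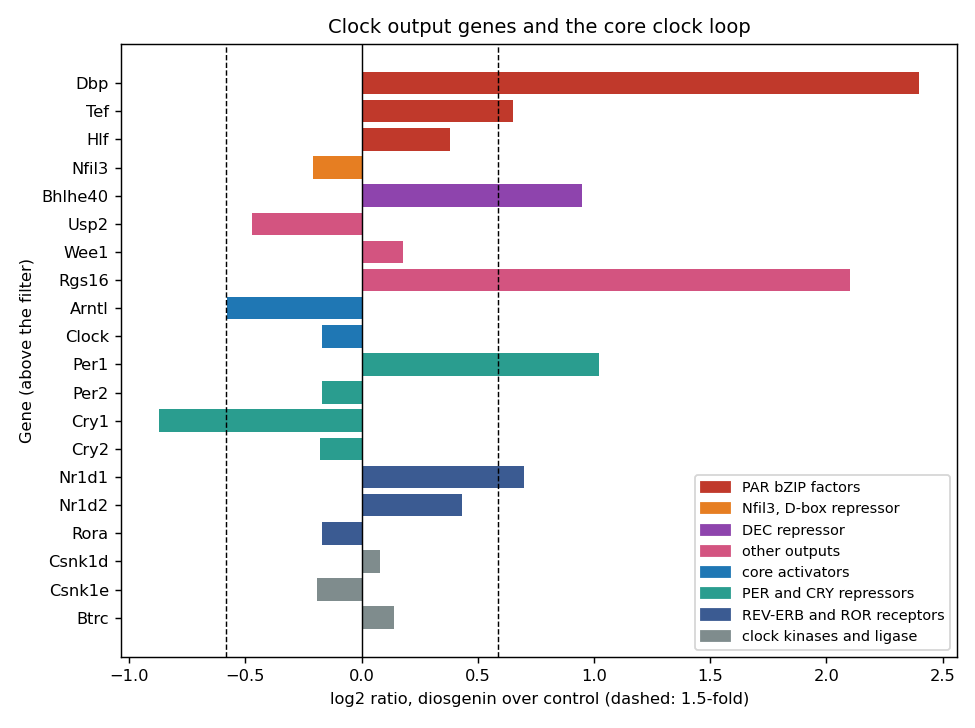
Log2 ratio of the diosgenin over the control array for the 8 clock output genes above the filter (top) and the 12 core clock genes above it (bottom), coloured by role, with dashed lines at 1.5-fold. The bars of Dbp, Rgs16, Per1, Bhlhe40, Nr1d1 and Tef pass the line on the higher side, and that of Cry1 passes it on the lower side.

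Genes that PAR bZIP factors or NFIL3 are known to act on were mixed. Of 11 such genes with a probe set, 8 passed the filter, 4 of them higher and 4 lower. The median of these 8 was −0.05 on the log2 scale, and 0 of them passed 1.5-fold upward and 1 downward. Of all genes above the filter, 2.84% passed it upward and 3.61% downward. Fgf21, also 1 of the 11, was under the filter at 9.39 and 27.7, a bound of at least 2.57-fold higher. Cyp7a1, which catalyses the limiting step from cholesterol to bile acids, read 631 in control and 261 in diosgenin liver, 2.42-fold lower. Nr1i3, the xenobiotic receptor CAR and a known PAR bZIP target, was 1.21-fold higher at 428 and 518. The target transcripts above the filter were thus mostly within 1.5-fold of the control, as were most of all genes. Nothing about Dbp is read from these counts.

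Other rhythmic liver transcripts were also mixed. All 12 with a probe set passed the filter, 8 of them higher and 4 lower. Their median was 0.11 on the log2 scale, and the 1.5-fold line was passed by 0 upward and by 2 downward. The shares of all genes above the filter were 2.84% and 3.61%. The lower ones were the transferrin receptor Tfrc, 2.17-fold lower at 576 and 266, and the fatty acid elongase Elovl3, 1.65-fold lower at 5092 and 3085.

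Outside the clock output genes, of which Rgs16 (2.10) lay closest to Dbp, the genes nearest to Dbp in their ratio were Hsd17b13, Ces5a, Tff3, Trim34a and Hamp2, with log2 ratios of 2.26, 2.62, 2.04, 1.95 and 1.78. Likeness here is a single ratio over 2 arrays and says nothing of a shared rhythm. A second probe set of Hsd17b13 had a log2 ratio of −0.80, and Ces5a and Hamp2 were read by probe sets that can bind several family members. With control signals of 18.7, 24.3 and 11.7, Ces5a, Tff3 and Trim34a passed the filter only through their diosgenin signals. The control signal of Trim34a was also close to the floor of 10.7.

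Markers of other liver cells also differed between both pools. Of 8 markers of liver endothelium above the filter 7 were lower, and the summed signal of the 8 was 1759.7 in control and 1330.5 in diosgenin liver. Clec4g, the brightest of them, read 745 and 464 and weighs heavily in that sum. The median log2 ratio of the 8 was −0.25. The standard deviation between probe sets describes single probe sets and does not measure the spread of such a median. Over all 8 stellate cell markers, the summed signals were 2505 and 3037, in which Dcn, the brightest at 939.8 and 1217, weighs heavily. The 7 above the filter were all higher, but Hand2 (27.8 and 54.02) passed only through its diosgenin signal. Col3a1, Lrat and Colec11 had log2 ratios of 0.02, 0.11 and 0.20, within the standard deviation of 0.28 between probe sets. Col1a1 (31.3 and 17.2), under the filter, was 1.82-fold lower. Kupffer cell markers were higher in 6 of 8 cases, with sums of 2052 and 2242, and no marker of these lists was at 0. Of the higher ones, Marco (13.3 and 45.1) passed the filter only through its diosgenin signal. Besides Marco and Clec4f (log2 ratio 0.36), the higher ones had log2 ratios of 0.05 to 0.19, within the standard deviation of 0.28 between probe sets. Immediate early genes, which respond to handling within minutes, were lower in 10 of 13 cases. Their summed signal over all 18 was 2347 and 1554, in which Egr1, at 545 and 63.1, weighs heavily. In a pool of whole liver, fewer cells of a type and less RNA per cell cannot be told apart. The part of these differences in the values of the clock output genes was not tested. The array's own probe sets for Gapdh, from the 5′ end, middle and 3′ end, had log2 ratios of −0.00, −0.01 and −0.04, and those for beta-actin −0.39, −0.33 and −0.26. For pyruvate carboxylase they were −0.12 at the 5′ end, 0.16 and 0.39 in the middle and 0.16 at the 3′ end.

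Each of the 8 genes above the filter kept its direction under every processing alternative that gave it a value. A floor, a pseudocount or a filter cannot reverse the ratio of a probe set, so under these alternatives no direction could change. The dimmer Usp2 probe set, which read higher, entered none of the alternatives. Nor did the probe sets under the filter of Tef (log2 ratios 0.14 and 1.37), Rgs16 (0.67 and 0.78) and Wee1 (0.38). For the 6 genes with 1 probe set above the filter, the probe set rule could only keep or drop the value. The ranges below therefore do not cover the spread between the probe sets of Tef, Rgs16, Usp2 and Wee1. The log2 ratio of Dbp ranged from 2.02 to 2.62, that of Bhlhe40 from 0.92 to 0.96 and that of Tef from 0.62 to 0.66. Hlf ranged from 0.25 to 0.39, Wee1 from 0.12 to 0.20, Nfil3 from −0.21 to −0.20 and Usp2, through its brighter probe set, from −0.47 to −0.36. Rgs16 ranged from 1.51 to 2.11 and had no value where dim genes or probe sets for alternative transcripts were left out.

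**Figure D4:**
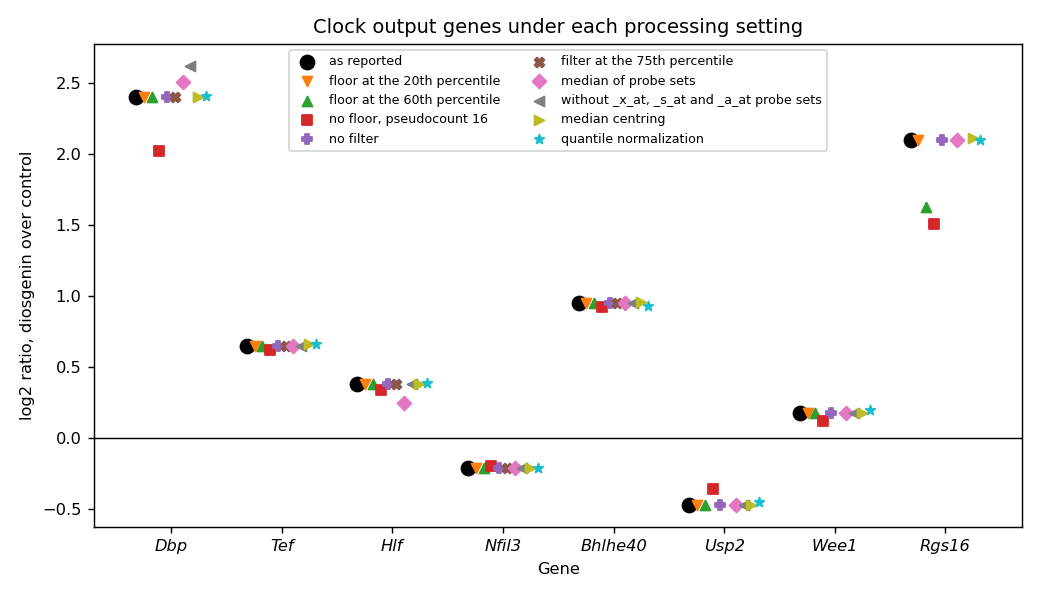
Log2 ratio of the diosgenin over the control array for the 8 genes above the filter, as reported (black circles) and under each processing alternative (coloured markers, offset sideways for clarity). No gene crosses 0, which the floor, pseudocount and filter settings could not bring about. Rgs16 (1.51 to 2.11) and Dbp (2.02 to 2.62) vary most.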

How the data were processed

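The authors deposited 1 linear array intensity per probe set. Per the submitters' processing notes, GCOS, the Affymetrix software, was used. How probes were summarised, the scaling target and any detection call are not stated in the labels. Equal 2% trimmed means were computed on the deposited intensity values. Per the labels' protocols, each array carried 5 µg of RNA pooled from 3 mice.

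Symbols came from the platform annotation. Of 45101 probe sets, 34958 had 1 symbol, 932 several and 9211 none, and 34754 of the first matched RefSeq (GRCm38.p6) by gene identifier. Log2 ratios, counts past 1.5-fold and 2-fold and ranks were computed in Python 3.11.15 with pandas 2.3.3, and the ratio and counting steps were tested on simulated data. With 1 array per diet no test was run, and the number of arrays limits the precision.

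Alternatives covered the floor, the filter, the probe set rule and the scaling between arrays. Named were all 9 genes, every core clock gene above the filter and, of the other lists, at most the 2 genes above the filter with the largest absolute log2 ratio; Slc66a2, Fgf21, Hand2 and Col1a1 were named after their values were seen. The genes and lists were chosen with earlier results of these data known.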

Additional observations from a re-analysis of the deposited data

How the results depend on the processing

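No paired analysis was possible because each diet had 1 array. Where no replicates exist, a member's ratio was said to move when it shifted by at least 0.28, the spread (SD) among probe sets reading a gene. With a pseudocount of 16 in place of the floor, the log2 ratio of Dbp was 2.02 and that of Rgs16 1.51, and with the floor at the 60th percentile that of Rgs16 was 1.63. Each change compresses dim signals by construction. The count of clock output genes at least 2-fold higher was 1 with the filter at the 75th percentile and 1 without shared and alternative probe sets, since Rgs16 has no value under either; for the same reason the count at least 1.5-fold higher was 3 in place of 4 there. Usp2 and Wee1 also have none at the stricter filter. Over all genes, the counts at least 1.5-fold higher and lower were 157 and 191 with the pseudocount, 752 and 865 without the filter and 105 and 136 at the stricter filter, against 276 and 351. At 2-fold they were 21 and 39, 180 and 218, and 19 and 32, against 54 and 83. A count was said to move past a factor of 1.5. The other 123 values moved by less than these limits. No clock output gene changed direction, which the floor, pseudocount and filter settings could not have brought about. The standard deviation of log2 ratios was 0.44 in the dimmest quartile of genes and 0.23 in the brightest, so Wee1, Usp2 and Rgs16 are read with least precision.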

Other observations

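Relatives of the clock output genes, from lists of their families, gave these values. Of 5 C/EBP family genes, bZIP factors that can bind sequences like the D-box, 4 read higher and 1 read lower, and the median was 0.42 on the log2 scale. Cebpd was 1.53-fold higher, at 64.1 in control and 97.9 in diosgenin liver, and Cebpb 1.38-fold higher at 749 and 1029.8. Of the RGS family that includes Rgs16, only Rgs3 and Rgs5 of 8 genes with a probe set passed the filter, at log2 ratios of 0.13 and 0.21. The other 2 probe sets of Rgs5 above the filter had a median log2 ratio of −0.23, in the opposite direction. Of 9 HES and HEY genes, bHLH repressors related to the DEC proteins, 3 passed it, with Heyl 1.30-fold higher and Hes6 1.17-fold lower. Of 8 genes of mitotic entry, where the WEE1 kinase acts, Cdc25a alone passed it, at 34.4 and 35.6.

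Of 10 genes of the glucose response through ChREBP, which is also known to act on Rgs16, all passed the filter, and 2 read higher and 8 read lower. Their median was −0.25 on the log2 scale, and 0 were as much as 1.5-fold apart. Of all genes above the filter, 2.84% were that much higher and 3.61% that much lower. Thrsp was 1.34-fold lower at 2496 and 1865, and Gpd1 1.28-fold lower at 1247 and 972. Fgf21, a known target of repression by NFIL3, was under the filter at 9.39 and 27.7, a bound of at least 2.57-fold higher. It is named after its values were seen.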
